A study of Mus musculus with 18 samples.

Results

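Ribosome footprints of epidermal basal cells from HrasG12V mouse embryos that carried a scrambled shRNA (HrasG12V shScram) were set against those of WT embryos with the same shRNA (WT shScram). The comparison took 6 of the 18 libraries of the series, 3 per group, and every gene of the count table. Of 20655 listed genes, 11448 passed a filter on low counts and were tested. A footprint is the stretch of mRNA that a ribosome shields from nuclease, so the footprint level of a gene follows both the amount of its mRNA and how densely ribosomes occupy it.

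Both groups had been injected in utero at E9.5 and collected at E18.5, and the epidermis was taken apart enzymatically in the presence of cycloheximide, which stalls elongating ribosomes. The series also holds footprints of HrasG12V embryos that received an shRNA against Eif2b5 (HrasG12V shEif2b5) and RNA libraries of all 3 conditions. Per the labels, strain FR-HrasG12V supplied the HrasG12V embryos, and the WT embryos carried the tm4(ACTB-tdTomato,-EGFP)Luo/J reporter allele of Gt(ROSA)26Sor, so genotype and strain cannot be told apart. The genotype label of WT shScram footprint library 1 reads Rosa26 in place of WT, how the HrasG12V allele was switched on is not given in the sources used here, and no label ties the libraries to separate animals, so the p-values measure the spread between these libraries.

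Hras encodes a small GTPase that passes signals from growth factor receptors to the RAF, MEK and ERK kinases, and the G12V form stays bound to GTP. Active ERK induces immediate early and ETS transcription factors. It also induces its own brakes, among them the dual-specificity phosphatases and the Sprouty and Spred proteins. In epidermis, basal cells attach to the basement membrane, divide, and feed the spinous and granular layers above and the hair placodes that bud below.

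The 6 libraries held 3319175 to 4579407 footprint counts each. Levels are in CPM, footprint counts scaled to a common library size, in the order of libraries 1, 2 and 3, and compare libraries for 1 gene but not genes of different length. Log2 fold changes are HrasG12V shScram over WT shScram, with the standard error (SE) of the edgeR model and n = 3 libraries per group. Genes with an adjusted p under 0.05 (Benjamini-Hochberg, over all tested genes) are named as called. Hras itself had 81.8, 74.8 and 79.1 CPM in HrasG12V shScram, against 73.1, 86.8 and 69.9 CPM in WT shScram (log2 0.04, 95% interval −0.29 to 0.36, adjusted p 0.950). The groups overlapped, and a gene count carries no allele, so it does not show the G12V change.

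The basal markers were present in both groups, with Krt5 at 7298 ± 1550.6 against 6431 ± 1139 CPM and the basal regulator Trp63 at 830.4 ± 55.8 against 812 ± 124 CPM (HrasG12V shScram and WT shScram, SD, n = 3 each). Summed over the 21 basal keratinocyte genes, the libraries held 14487, 15198 and 18305 CPM in HrasG12V shScram, against 12121, 14717 and 16196 CPM in WT shScram. Spinous keratinocyte genes were also abundant, with sums of 43138, 36962 and 35558 CPM in HrasG12V shScram, against 30582, 48142 and 25191 CPM in WT shScram, so suprabasal mRNA was in the material. WT shScram library 2 had the highest spinous sum and library 3 the lowest. Melanocyte and dermal fibroblast genes were detected. Their sums overlapped, at 1581 to 1878 against 1397 to 1640.0 CPM and at 1325 to 2004 against 1287 to 2598 CPM in HrasG12V shScram and WT shScram. Of 12 tested fibroblast genes 9 had a negative fold change, and Thy1 was called, and higher. It had 76.3, 72.9 and 76.6 CPM in HrasG12V shScram, against 32.3, 17.5 and 20.3 CPM in WT shScram. Its change was 3.25-fold (SE 0.18, adjusted p 1.97e-05), and it kept its call when any 1 library was left out. Immune genes summed to at most 162 CPM in any of the 6 libraries, endothelial genes to at most 23.4 CPM, erythroid genes to at most 22.5 CPM and skeletal muscle genes to at most 28.4 CPM, and the Langerhans cell gene Cd207 and the globin genes Hba-a1 and Hbb-bs were at 0. In bulk libraries of this kind, fewer cells of a type and less RNA per cell cannot be told apart.

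In all, 195 genes were called, 1.7% of those tested. Of these, 141 (1.23% of tested genes) were higher in HrasG12V shScram and 54 (0.472%) were lower. Among the higher genes 52 differed by more than 2-fold and the median change was 1.79-fold, and among the lower genes 11 differed by more than 2-fold and the median log2 change was −0.75. Of the 141 higher genes 23 stood under 5 CPM in WT shScram. Over all 11448 tested genes, 1632 (14.3%) had an unadjusted p under 0.05, and 5498 had a positive fold change. Leaving out 1 library ended the call of 144 of the 195 in at least 1 of the 6 fits, and 51 genes (0.445% of those tested) were called in all 6. For most other called genes described, the fits that ended the call are given. The fit without WT shScram library 3 called 559 genes in all, against 73 to 106 in the other fits without 1 library. Counts of list members from that fit stand beside this higher total.

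**Figure D1:**
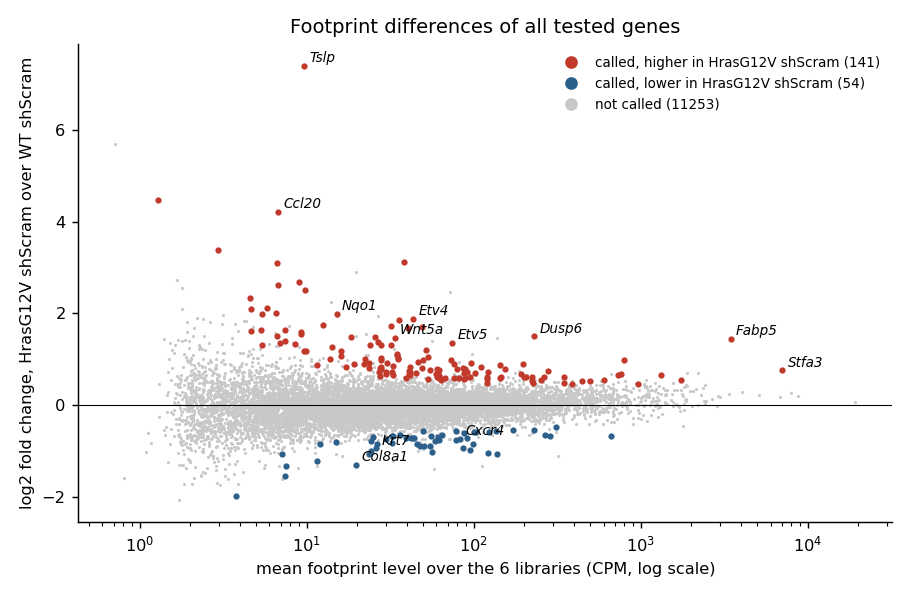
Log2 fold change in footprints (vertical axis, HrasG12V shScram over WT shScram) of each tested gene against its mean level over the 6 libraries (horizontal axis, CPM, log scale). The 141 called genes that were higher are red, the 54 that were lower are blue, and Tslp and Ccl20 lie farthest above 0 among the labelled genes.

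Among the feedback inhibitors of ERK, Dusp6, Spry1, Spry2, Spry4 and Spred1 rose. Of 15 listed genes 13 were tested and these 5 were called, while 8 were not, and the median log2 change over the 13 was 0.34, against −0.01 over all tested genes. Summed over the list, HrasG12V shScram libraries held 589.9, 569 and 665 CPM and WT shScram libraries 309.6, 300.2 and 321 CPM. Dusp6 supplied most of the difference, and the sums did not overlap, as was true of 20.3% of single tested genes.

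Dusp6 encodes the cytoplasmic phosphatase that removes phosphate from ERK. It had 317, 305 and 397 CPM in HrasG12V shScram, against 116, 117 and 127 CPM in WT shScram. Spry2, a Sprouty adaptor that blocks signalling upstream of RAF, had 34.1, 33.0 and 46.8 CPM in HrasG12V shScram, against 17.6, 9.98 and 13.5 CPM in WT shScram (2.80-fold, log2 1.49, SE 0.21, adjusted p 8.12e-04). Every HrasG12V library lay well above every WT library for both genes, and both were called in all 6 fits without 1 library, with a highest adjusted p of 0.00978 for Spry2. Spred1, a Sprouty-related protein that brings the RAS inactivator neurofibromin to the membrane, had 49.1, 47.5 and 46.6 CPM in HrasG12V shScram, against 23.7, 14.5 and 28.3 CPM in WT shScram (2.16-fold, SE 0.19, adjusted p 0.00291, and at most 0.0265 in the 6 fits). The HrasG12V values were nearly equal, whereas the WT values spread about a low mean. Spry1 had 10.7, 13.9 and 11.7 CPM in HrasG12V shScram, against 7.25, 3.63 and 3.76 CPM in WT shScram (2.50-fold, SE 0.27, adjusted p 0.0161). That call was lost when HrasG12V shScram library 2 (adjusted p 0.0825), HrasG12V shScram library 3 (0.0599) or WT shScram library 2 (0.104) was left out. Spry4, on chromosome 18, was the remaining called member, at 11.5 ± 1.27 against 1.90 ± 1.26 CPM (adjusted p 6.76e-04).

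The 8 tested members without a call included other phosphatases of the family. Dusp4 stood at 13.6 against 10.8 CPM on average (log2 0.34, adjusted p 0.540), Dusp7 at 72.7 against 74.8 CPM (adjusted p 0.932) and Errfi1, an inhibitor of the EGF receptor, at 19.6 against 18.4 CPM (adjusted p 0.898), in HrasG12V shScram and WT shScram.

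The promoters of 2 feedback genes and of the chemokine gene Ccl20, described below, are shown as examples from genes called in all 6 fits without 1 library, to which Etv5, Spred1 and Stfa3, not printed here, also belong. They are the 250 bases upstream of the RefSeq gene start on GRCm38.p6, read 5′ to 3′ on the gene's strand: Dusp6 at chr10:99262981-99263230 (plus strand), Spry2 at chr14:105896820-105897069 (minus strand) and Ccl20 at chr1:83116516-83116765 (plus strand). Capitals mark matches on either strand to 7 motifs. The AP-1 motif was searched as TGANTCA. The cyclic AMP response element, or CRE, was searched as TGACGTCA. The ETS motif was searched as CCGGAAG and its shorter core as GGAAGT. The TATA box was searched as TATAAA, the CCAAT box by those letters and the GC box as GGGCGG. The ETS core and CCAAT were added to the search after these promoters had been read. The longer ETS motif and its core share letters, so a site can match both.

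Dusp6: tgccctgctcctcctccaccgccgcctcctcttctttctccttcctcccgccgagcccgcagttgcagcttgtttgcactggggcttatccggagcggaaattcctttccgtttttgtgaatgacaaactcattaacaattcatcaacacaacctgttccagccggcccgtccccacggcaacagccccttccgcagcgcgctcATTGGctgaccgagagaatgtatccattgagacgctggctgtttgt
Spry2: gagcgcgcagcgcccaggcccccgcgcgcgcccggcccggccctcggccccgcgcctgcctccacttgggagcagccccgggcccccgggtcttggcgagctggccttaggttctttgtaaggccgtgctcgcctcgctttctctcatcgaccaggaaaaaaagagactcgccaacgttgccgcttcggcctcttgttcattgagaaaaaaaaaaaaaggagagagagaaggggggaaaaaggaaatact
Ccl20: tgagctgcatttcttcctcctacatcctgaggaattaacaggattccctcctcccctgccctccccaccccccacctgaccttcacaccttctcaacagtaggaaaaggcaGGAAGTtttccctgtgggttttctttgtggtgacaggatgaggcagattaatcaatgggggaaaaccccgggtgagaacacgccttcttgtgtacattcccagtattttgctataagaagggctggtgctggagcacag

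Dusp6 held 1 CCAAT match, whose first base lay 46 bases upstream of the start, and Ccl20 held 1 ETS core match at 139 bases. The Spry2 window held none of the 7 motifs. Of 32851 mouse promoters of the same length, 33.8% held CCAAT, 19.7% the ETS core, 6.91% the longer ETS motif, 6.75% the AP-1 motif, 1.55% the CRE, 12.4% the TATA box and 32.7% the GC box.

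Of 15 tested ETS factors, Etv4 and Etv5 were called higher and the list's median was −0.03. A further member had an unadjusted p under 0.05 (3 in all), and 3 were called without WT shScram library 3. Etv4, an ERK-responsive factor of the PEA3 group, had 81.8, 59.0 and 64.5 CPM in HrasG12V shScram, against 18.4, 18.8 and 18.53 CPM in WT shScram. Etv5, of the same group, had 121, 86.6 and 113 CPM in HrasG12V shScram, against 44.6, 44.0 and 36.1 CPM in WT shScram. The groups were far apart for both. Etv1, the remaining PEA3 member, was low at 3.62 against 2.62 CPM on average and was not called (adjusted p 0.690), and Ets2 stood at 262 against 338 CPM (log2 −0.37, adjusted p 0.156).

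Of 20 tested AP-1 and immediate early genes, 3 were called higher and 1 lower, with a median of 0.12. Junb, an AP-1 subunit, had 59.1, 63.4 and 61.6 CPM in HrasG12V shScram, against 24.3, 36.0 and 35.1 CPM in WT shScram, and was the member called in all 6 fits. Myc, a growth-promoting transcription factor, had 81.6, 95.6 and 126 CPM in HrasG12V shScram, against 49.4, 60.5 and 66.6 CPM in WT shScram (1.72-fold, SE 0.16, adjusted p 0.0168). Egr1, a zinc finger factor induced by ERK, had 84.5, 51.3 and 70.6 CPM in HrasG12V shScram, against 41.6, 46.5 and 34.3 CPM in WT shScram (1.69-fold, SE 0.18, adjusted p 0.0375). The lowest HrasG12V library lay close above the highest WT library for Egr1. Fosl2, another AP-1 subunit, had 62.4, 69.9 and 74.4 CPM in HrasG12V shScram, against 95.9, 131 and 88.9 CPM in WT shScram (log2 −0.62, SE 0.14, adjusted p 0.0303). Without 1 library the adjusted p reached 0.118 for Myc (HrasG12V shScram library 3), 0.250 for Egr1 (HrasG12V shScram library 1) and 0.213 for Fosl2 (WT shScram library 2), and they kept their calls in 3, 1 and 2 of the 6 fits.

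None of the 27 tested components of the cascade itself, from Ras genes to ERK kinases, was called by edgeR (median 0.02). At an unadjusted p under 0.05 there were 5, beside 14.3% of all tested genes. At most 1 member was called in any alternative that left out a library.

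**Figure D2:**
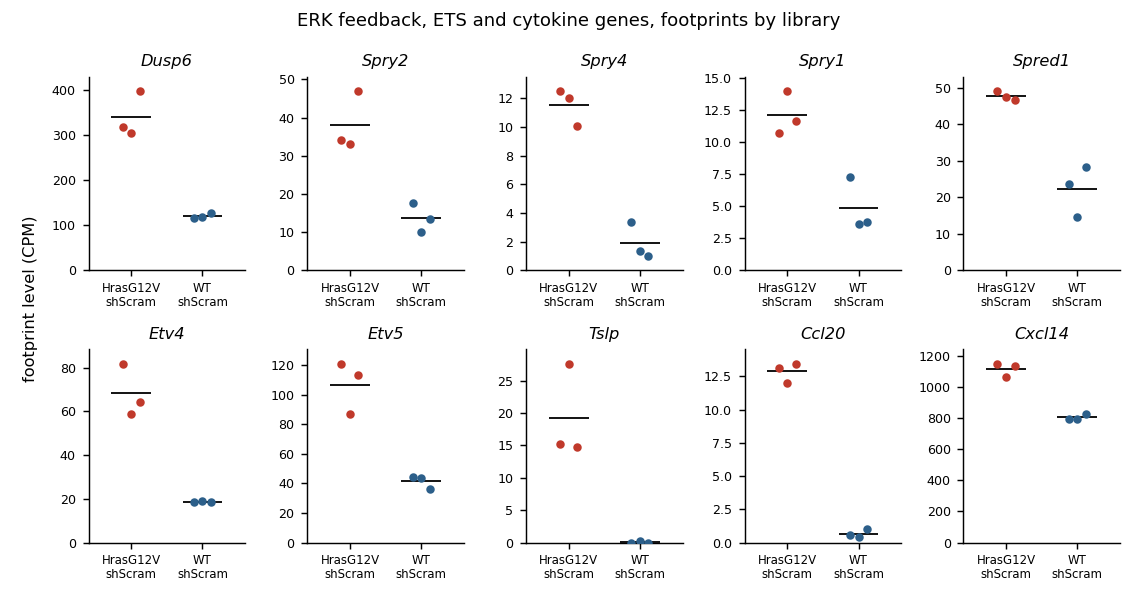
Footprint level (vertical axis, CPM from 0) of ERK feedback, ETS and cytokine genes in each library (points) with the group mean (line), HrasG12V shScram in red and WT shScram in blue, n = 3 each. In all 10 panels the red points lie above the blue points, with Tslp and Ccl20 near 0 in WT shScram.

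Tslp, Ccl20 and Cxcl14 were the cytokine and chemokine genes called, all higher. Of 41 listed cytokine and chemokine genes 19 were tested, 3 were called higher, and 9 had no footprint in the 6 libraries. Ccl20, which attracts CCR6-bearing cells, had 13.2, 12.02 and 13.4 CPM in HrasG12V shScram, against 0.558, 0.453 and 1.00 CPM in WT shScram. Tslp, an epithelial alarmin that acts on dendritic cells, had 235 counts in the HrasG12V shScram libraries and 1 in the WT shScram libraries, a ratio of scaled counts of 223 (95% exact binomial interval 39.7 to 8864.5, counting error only). For both genes WT libraries were almost empty.

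Cxcl14, a chemokine made constitutively by epidermis, had 1148, 1060.5 and 1131 CPM in HrasG12V shScram, against 792, 796 and 825 CPM in WT shScram (1.38-fold, SE 0.11, adjusted p 0.0383). The groups did not overlap, yet the gene kept its call only in the fit without WT shScram library 3, and its adjusted p otherwise ran up to 0.179 (without HrasG12V shScram library 1). Cxcl1 averaged 2.08 against 0.0930 CPM and was below the filter, and Cxcl2, Cxcl3, Cxcl5 and Il6 had no footprint in the 6 libraries. Il18 and Il1f6 averaged 14.1 against 7.19 CPM and 9.97 against 6.33 CPM in HrasG12V shScram and WT shScram and were not called (adjusted p 0.216 and 0.291).

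The receptor genes Cxcr4, Ackr3 and Ackr4 were called lower. They were chosen from the called genes after their values were seen, and no list of chemokine receptors was counted. Cxcr4, the receptor of Cxcl12, had 57.3, 59.5 and 68.1 CPM in HrasG12V shScram, against 108, 98.4 and 103 CPM in WT shScram (log2 −0.74, SE 0.12, adjusted p 0.00280), and was called in all 6 fits. Ackr3, a scavenging receptor of the same ligand, had 45.0, 56.0 and 50.2 CPM in HrasG12V shScram, against 79.2, 78.9 and 77.9 CPM in WT shScram (log2 −0.64, SE 0.13, adjusted p 0.0109). Ackr4, a scavenger of CC chemokines, had 27.4, 37.4 and 31.4 CPM in HrasG12V shScram, against 49.1, 52.8 and 55.3 CPM in WT shScram (log2 −0.71, SE 0.16, adjusted p 0.0276). The HrasG12V libraries were all below the WT libraries for the 3 genes. Ackr3 lost its call without HrasG12V shScram library 1 (0.0953) or 3 (0.0633), and Ackr4 kept its call in 2 of the 6 fits (up to 0.190, without HrasG12V shScram library 1). The RNA of Cxcr4 stood at 18.9, 27.2 and 32.4 against 26.7, 22.5 and 28.03 CPM in the same 2 conditions, an RNA difference of 0.00 on the log2 scale (adjusted p 0.995), and the test of the footprint difference minus the RNA difference gave −0.74 (adjusted p 0.182).

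The next called genes act on prostaglandins, leukotrienes and related lipids, and apart from Ptges and Alox12e they were chosen after their values were seen, with no list counted. Ptges, the enzyme that makes prostaglandin E2, had 31.4, 44.8 and 39.9 CPM in HrasG12V shScram, against 13.7, 18.8 and 11.8 CPM in WT shScram (2.599-fold, SE 0.20, adjusted p 8.12e-04). Ltb4r2, a receptor for leukotriene B4 and related hydroxy fatty acids, had 23.9, 24.9 and 32.7 CPM in HrasG12V shScram, against 5.30, 10.2 and 13.3 CPM in WT shScram (2.80-fold, SE 0.24, adjusted p 0.00255). Both separated the groups clearly and were called in all 6 fits. Ptgds, a prostaglandin D synthase, was called higher (1.54-fold, adjusted p 0.0191), as was Slco2a1, a prostaglandin transporter (2.26-fold, adjusted p 0.0303). Alox12e, an epidermal lipoxygenase, had 53.5, 81.9 and 57.4 CPM in HrasG12V shScram, against 111, 126 and 140.2 CPM in WT shScram (log2 −0.98, SE 0.21, adjusted p 0.0294). Ptgds, Slco2a1 and Alox12e kept their calls in 2, 0 and 1 of the 6 fits, and each had its highest adjusted p without HrasG12V shScram library 1 (0.122, 0.166 and 0.156).

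Among S100 and stefin genes, which encode calcium-binding proteins and protease inhibitors, Stfa3, BC100530, S100a9 and S100a10 were called higher. Of 25 listed S100 and stefin genes 19 were tested, 18 had a positive fold change, 4 were called and all 4 were higher, with a median of 0.53. Of all 11448 tested genes 5498 were positive. Stfa3, an abundant inhibitor of cysteine proteases, had 9349.9, 9650.1 and 7629 CPM in HrasG12V shScram, against 5576, 5209 and 4982 CPM in WT shScram. BC100530, a neighbouring stefin gene, had 1092, 1122 and 968 CPM in HrasG12V shScram, against 580.3, 597 and 440.0 CPM in WT shScram (1.97-fold, SE 0.16, adjusted p 0.00335). Both were well separated, and both were called in all 6 fits, with a highest adjusted p of 0.0300.

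These genes lie in a cluster of near copies on chromosome 16, so the first 90 bases of their coding sequences (GENCODE vM21) are shown, with capitals for bases inside a 28-base window, about the length of a footprint, that also occurs in the coding sequence of another gene.

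Stfa3: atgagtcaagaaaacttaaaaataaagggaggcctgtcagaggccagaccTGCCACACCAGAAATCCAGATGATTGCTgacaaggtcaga
BC100530: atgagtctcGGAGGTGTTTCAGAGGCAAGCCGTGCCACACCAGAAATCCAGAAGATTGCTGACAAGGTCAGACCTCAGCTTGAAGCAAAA

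Over the whole coding sequence, 28 of 309 bases of Stfa3 fell in shared windows, against 259 of 291 bases of BC100530, whose windows were shared with BC117090 (56.4%) and Stfa1 (53.4%). The count of BC100530 is therefore uncertain, while most windows of Stfa3 had no exact copy in another gene's longest coding sequence. Copies with mismatches, or outside coding sequence, were not searched, so the share of Stfa3 reads that are unique is not known. Of the 189 called genes with a coding sequence in the annotation, 160 held no shared window and 10 held more than 10% of shared windows. The highest shares among these were in Rpl10, Hist1h2ac, BC100530, Hspe1, Nme1 and Hist1h4d, each above 50%.

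S100a9, a subunit of calprotectin, had 10.03, 13.7 and 11.9 CPM in HrasG12V shScram, against 3.07, 0.680 and 0.501 CPM in WT shScram (8.60-fold, SE 0.58, adjusted p 0.0202), while its partner S100a8 had 2.45, 1.37 and 0.672 CPM in HrasG12V shScram, against 2.23, 0.907 and 0.250 CPM in WT shScram (adjusted p 0.850). S100a10, the partner of annexin A2, had 588, 594 and 575 CPM in HrasG12V shScram, against 428, 331 and 459 CPM in WT shScram (1.44-fold, SE 0.13, adjusted p 0.0436). Neither overlapped between the groups, but S100a9 kept its call in 2 and S100a10 in 1 of the 6 fits, with a highest adjusted p of 0.112 and 0.230 without WT shScram library 2.

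Keratins of wounded and stressed epidermis gave a mixed picture. Of 18 tested members of the stress and wound list, 3 were called higher and 1 lower, and the median was 0.45. Krt17, a keratin of appendages and wound edges, had 1709, 1369 and 1795 CPM in HrasG12V shScram, against 834, 936 and 1319 CPM in WT shScram (1.58-fold, SE 0.15, adjusted p 0.0303). Krt75, a hair follicle companion layer keratin, had 59.3, 46.7 and 53.8 CPM in HrasG12V shScram, against 33.5, 20.6 and 35.8 CPM in WT shScram (1.79-fold, SE 0.18, adjusted p 0.0220). Plau, the urokinase protease gene, was the third (1.40-fold, adjusted p 0.0462). Krt7, a keratin of simple epithelia, went the other way, at 20.5, 16.1 and 17.0 CPM in HrasG12V shScram, against 34.3, 37.4 and 31.6 CPM in WT shScram (log2 −0.94, SE 0.17, adjusted p 0.00609), and was called in all 6 fits. Krt17, Krt75 and Plau kept their calls in 2, 3 and 0 fits, with a highest adjusted p of 0.159 without WT shScram library 2, 0.153 without HrasG12V shScram library 1 and 0.234 without HrasG12V shScram library 3.

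The classic stress keratins were well separated but not called in the fit of all 9 footprint libraries, and are named here after their values were seen. Krt6b had 45.9, 38.2 and 21.1 CPM in HrasG12V shScram, against 2.79, 5.67 and 5.26 CPM in WT shScram (log2 2.91, adjusted p 0.153). Krt16 had 133, 134 and 103 CPM in HrasG12V shScram, against 15.6, 23.4 and 27.8 CPM in WT shScram (log2 2.46, adjusted p 0.194). The lowest HrasG12V library exceeded the highest WT library several-fold for both. The HrasG12V shEif2b5 libraries in that fit spread widely, at 68.8, 246 and 196 CPM for Krt6b and 102, 559.6 and 546 CPM for Krt16. When edgeR was fitted to the 6 libraries alone, Krt6b (log2 2.90, adjusted p 0.00124), Krt16 (2.45, 8.54e-06) and Krt6a (1.02, 0.0267) were called. The same fit ended the calls of Krt17 (adjusted p 0.0607) and Plau (0.0696). Krt6a and Krt6b share 69.4% of the 28-base windows of Krt6a, so how their reads divide is uncertain.

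**Figure D3:**
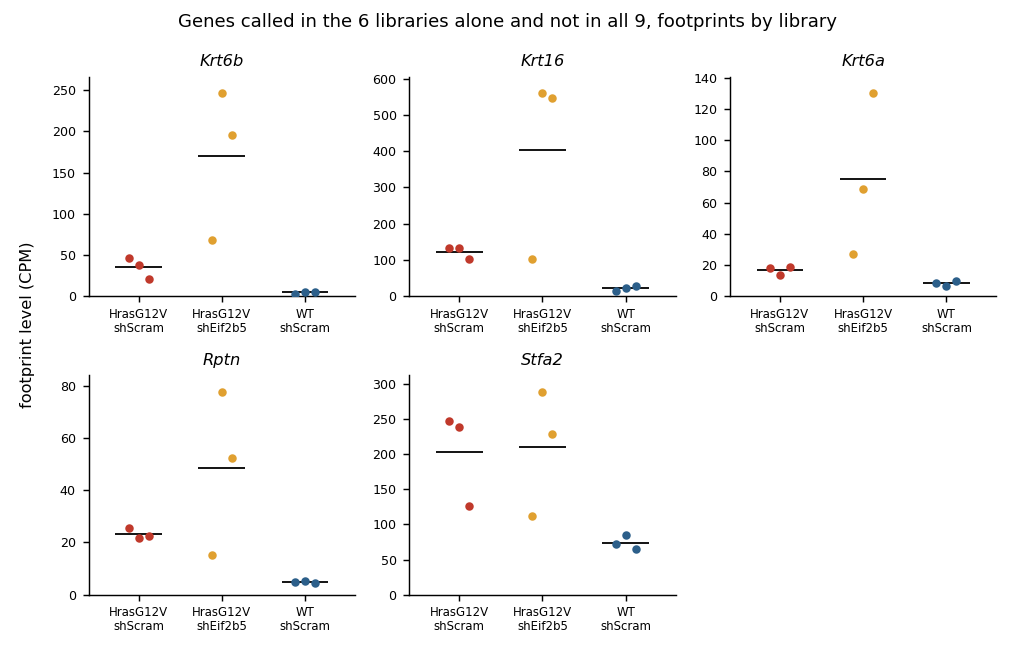
Footprint level (vertical axis, CPM from 0) of Krt6b, Krt16, Krt6a, Rptn and Stfa2 in each library (points) with the group mean (line), for HrasG12V shScram, HrasG12V shEif2b5 and WT shScram, n = 3 each. HrasG12V shScram lies above WT shScram in every panel, while the HrasG12V shEif2b5 points are spread, with library 1 lowest.

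The 6 libraries alone gave 225 calls, of which 183 were among the 195 and 42 were added. The other 12 of the 195 were not called there (Rprm was not tested), among them Prr9 (adjusted p 0.107), S100a10 (0.0551), Slc7a1 (0.0583), Apcdd1 (0.0501), Rpl10 (0.0538) and Tmem256 (0.0983). Beside the keratins the added genes included Rptn, a cornified layer protein of the S100 fused type (25.4, 21.8 and 22.4 against 5.02, 5.21 and 4.26 CPM in HrasG12V shScram and WT shScram), and Stfa2 (248, 238 and 126 against 72.2, 84.8 and 65.1 CPM). They also included Crabp2, a retinoic acid carrier (50.8, 46.4 and 43.7 against 15.3, 24.7 and 20.3 CPM), and Thbd, the thrombin receptor thrombomodulin (29.0, 30.3 and 28.7 against 8.37, 14.5 and 7.51 CPM). Skint9, of a butyrophilin-like family expressed in skin, was added as lower (27.2, 16.1 and 15.5 against 50.2, 48.5 and 38.8 CPM). These 5 were also chosen after their values were seen.

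Genes of the differentiation programme are given beside all tested genes, of which 1.7% were called and 14.3% had an unadjusted p under 0.05. None of 19 spinous genes was called by edgeR (median 0.20, 5 at an unadjusted p under 0.05, and 1 called without WT shScram library 2), and of 29 tested granular and cornified genes 1 was called higher and 1 lower (median 0.30). Prr9, a proline-rich gene of the epidermal differentiation complex, had 76.5, 69.4 and 60.3 CPM in HrasG12V shScram, against 17.8, 3.85 and 3.01 CPM in WT shScram, and Sprr1a, a cornified envelope precursor, had 5.57, 9.01 and 6.27 CPM in HrasG12V shScram, against 19.2, 18.8 and 10.5 CPM in WT shScram. They moved in opposite directions, and each kept its call in 2 of the 6 fits (both up to 0.156 without HrasG12V shScram library 1). Granular sums were 4879, 5061 and 5143 CPM in HrasG12V shScram, against 3596, 6646 and 3205 CPM in WT shScram, so the WT libraries spanned the HrasG12V ones. Leaving out WT shScram library 2 put the median of the granular list at 0.61, and leaving out its library 3 put it at 0.07. Cldn1, the tight junction claudin of the barrier, was lower, at 213, 224 and 194 CPM in HrasG12V shScram, against 358, 366 and 263 CPM in WT shScram (log2 −0.65, SE 0.14, adjusted p 0.0185, called in 1 of 6 fits, up to 0.113 without HrasG12V shScram library 3).

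**Figure D4:**
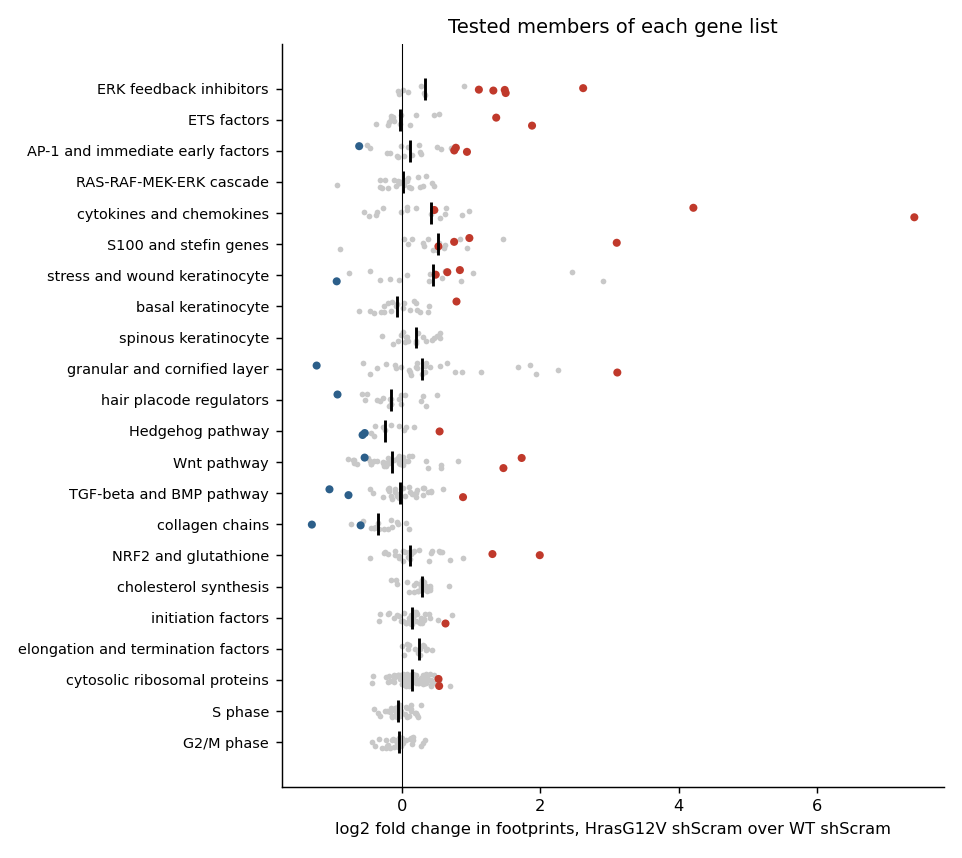
Log2 fold change in footprints (horizontal axis, HrasG12V shScram over WT shScram) of each tested member of 22 gene lists (rows), with called members in red (higher) or blue (lower), other members in grey and the list's median as a black bar. The ERK feedback, cytokine, S100, stress and wound, and granular lists each have members far to the right. The collagen list has its median at −0.35 and 17 of 19 members below 0.

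Of the 21 basal genes Id1 was called, and higher. Id1 and Id3 encode inhibitors of basic helix-loop-helix factors and are classic targets of BMP signalling. Id3 had 186, 176 and 199 CPM in HrasG12V shScram, against 88.4, 85.0 and 130.2 CPM in WT shScram (1.85-fold, SE 0.15, adjusted p 0.00296). Id1 had 113, 109.5 and 113 CPM in HrasG12V shScram, against 51.9, 63.0 and 79.6 CPM in WT shScram (1.72-fold, SE 0.15, adjusted p 0.00787). The HrasG12V libraries were tightly grouped above the WT libraries, and both genes were called in all 6 fits. Of 35 tested TGF-beta and BMP pathway genes, 1 was called higher and 2 lower, with a median of −0.02 (17 positive, 18 negative). None of the 10 hemidesmosome and laminin-332 genes was called by edgeR (median −0.05), nor was any of the 40 S phase genes (−0.05) or 40 G2/M genes (−0.04). At an unadjusted p under 0.05 there were 1, 2 and 5 such genes, beside 14.3% of all tested genes. Without WT shScram library 3, edgeR called 1 S phase and 3 G2/M genes, among 559 genes in all.

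Among ligand and matrix genes, 2 of 33 matrix genes (median 0.00) and 3 of 24 secreted growth factors (median −0.07) were called. Of all tested genes 1.7% were called. Tgfb2, a ligand of the TGF-beta family, had 58.6, 56.3 and 60.1 CPM in HrasG12V shScram, against 111, 97.7 and 90.2 CPM in WT shScram (log2 −0.77, SE 0.12, adjusted p 0.00203). Wnt5a, a Wnt ligand of the non-canonical branch, had 64.9, 36.0 and 47.5 CPM in HrasG12V shScram, against 22.3, 17.2 and 14.5 CPM in WT shScram (2.77-fold, SE 0.21, adjusted p 0.00102). Fgfbp1, which releases FGFs from the matrix, had 937, 929 and 969 CPM in HrasG12V shScram, against 587, 594 and 589.7 CPM in WT shScram (1.601-fold, SE 0.11, adjusted p 0.00203). All 3 were called in all 6 fits, and for Fgfbp1 the replicates lay within a few percent of each other.

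Ctgf, a matricellular growth factor modulator, had 73.1, 66.6 and 78.0 CPM in HrasG12V shScram, against 25.9, 29.0 and 39.3 CPM in WT shScram (2.31-fold, SE 0.16, adjusted p 4.84e-04). Thbs2, an antiangiogenic thrombospondin, had 50.2, 52.7 and 82.7 CPM in HrasG12V shScram, against 21.5, 19.5 and 17.3 CPM in WT shScram (3.19-fold, SE 0.18, adjusted p 3.64e-05). Mgp, an inhibitor of calcification, had 57.5, 44.0 and 34.96 CPM in HrasG12V shScram, against 21.2, 18.4 and 15.8 CPM in WT shScram (2.47-fold, SE 0.19, adjusted p 9.95e-04). Hmcn1, a giant basement membrane protein, rose 1.97-fold (adjusted p 0.00152). These 4 were called in all 6 fits and overlapped in none of the libraries. Pdgfc rose 1.62-fold (adjusted p 0.0210, called in 1 of 6 fits, up to 0.119 without WT shScram library 2), and Edn1, the vasoconstrictor and melanocyte mitogen endothelin, fell by 1.00 on the log2 scale (adjusted p 0.0100, lost without HrasG12V shScram library 1 at 0.0550 or library 2 at 0.0605).

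Of 19 tested collagen chains 2 were called, both lower. The list had a median of −0.35 and 17 negative fold changes, beside 5950 of all 11448 tested genes, and 0 to 4 chains were called without 1 library (0 without HrasG12V shScram library 1). Col5a2 had 90.7, 98.3 and 105 CPM in HrasG12V shScram, against 133, 179.8 and 132 CPM in WT shScram (log2 −0.60, SE 0.13, adjusted p 0.0258), and Col8a1 had 11.8, 7.92 and 14.3 CPM in HrasG12V shScram, against 19.2, 36.3 and 28.8 CPM in WT shScram. Their libraries did not overlap. Col5a2 kept its call in 2 and Col8a1 in 3 of the 6 fits (up to 0.164 and 0.0749 without WT shScram library 2), and the list's median ran from −0.66 without HrasG12V shScram library 3 to −0.07 without library 2. The dermal fibroblast list, whose collagens are shared with this list, summed to 1508, 1325 and 2004 CPM in HrasG12V shScram, against 2598, 1932 and 1287 CPM in WT shScram, and its part in the collagen values was not tested.

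Hair placode and Hedgehog genes are given beside all tested genes, of which 195 of 11448 (1.7%) were called. Of 20 tested placode regulators 1 was called, lower (median −0.16, 15 members negative), and of 13 Hedgehog genes 2 were called lower and 1 higher (median −0.24, 9 negative). Of all 11448 tested genes 5950 were negative. Without HrasG12V shScram library 1 no Hedgehog gene was called. Foxi3, a forkhead factor of placodes, had 60.4, 54.9 and 63.6 CPM in HrasG12V shScram, against 119.6, 131 and 92.9 CPM in WT shScram. Shh, the placode ligand, had 70.5, 57.4 and 63.0 CPM in HrasG12V shScram, against 81.7, 104 and 96.9 CPM in WT shScram, and its receptor Ptch1 had 144, 131 and 148 CPM in HrasG12V shScram, against 202, 186 and 226 CPM in WT shScram. Boc, a Hedgehog co-receptor, ran opposite, at 73.4, 75.9 and 77.1 CPM in HrasG12V shScram, against 55.5, 47.2 and 52.6 CPM in WT shScram (1.46-fold, SE 0.12, adjusted p 0.0238). Foxi3 was called in all 6 fits, Shh and Boc in 2 and Ptch1 in none (up to 0.232 and 0.200 for Shh and Ptch1 without HrasG12V shScram library 2, and 0.135 for Boc without WT shScram library 2). Irx1, an Iroquois factor of the epidermis, had 33.4, 36.9 and 36.3 CPM in HrasG12V shScram, against 57.7, 80.0 and 60.4 CPM in WT shScram (log2 −0.90, SE 0.15, adjusted p 0.00280), and kept its call in all 6 fits.

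In the Wnt list, 44 genes were tested, Wif1 and Wnt5a were called higher and Apcdd1 lower, and the median was −0.15. Apcdd1, a Wnt inhibitor that is also a Wnt target, had 163, 212 and 189 CPM in HrasG12V shScram, against 283, 298 and 237 CPM in WT shScram (log2 −0.54, SE 0.13, adjusted p 0.0383, called in 1 of 6 fits, up to 0.259 without HrasG12V shScram library 1). The Merkel cell genes summed to 23.0, 16.9 and 28.9 CPM in HrasG12V shScram, against 30.4, 33.8 and 38.3 CPM in WT shScram. None of the 7 tested Merkel genes was called by edgeR, in the fit of 9 libraries or in the 6 fits without 1 library, and 3 had an unadjusted p under 0.05.

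Some redox and detoxification genes were among the most stable calls. Of 28 tested NRF2 and glutathione genes, Nqo1 and Gsta4 were called, both higher, with a list median of 0.12. Nqo1, a quinone reductase, had 22.7, 28.1 and 21.96 CPM in HrasG12V shScram, against 5.58, 7.71 and 4.76 CPM in WT shScram (3.98-fold, SE 0.22, adjusted p 4.58e-05). Gsta4, a glutathione transferase for lipid aldehydes, had 37.5, 33.0 and 32.3 CPM in HrasG12V shScram, against 16.7, 13.4 and 11.5 CPM in WT shScram (2.48-fold, SE 0.17, adjusted p 3.22e-04). Both kept their calls in all 6 fits. Mt2, a metallothionein, had 276, 255 and 238 CPM in HrasG12V shScram, against 157, 119 and 136 CPM in WT shScram (1.87-fold, SE 0.14, adjusted p 0.00165), and Aldh1a3, which makes retinoic acid, rose 3.97-fold at low levels (9.59, 8.19 and 8.29 against 3.07, 2.49 and 1.00 CPM, adjusted p 0.00760). Without WT shScram library 3, edgeR called 6 members of the NRF2 list, among 559 genes in all.

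Several metabolic genes were higher, and Aqp9, Emb and Sec14l2 were called in all 6 fits. Of 34 tested fatty acid and lipid genes 2 were called, both higher. In that list 18 were positive and 16 negative, with a median of 0.01. Of 28 tested glycolysis and pentose phosphate genes edgeR called 0 in the fit of 9 libraries and 3 without WT shScram library 3. Aqp9, a channel for water and glycerol, had 21.8, 21.3 and 15.2 CPM in HrasG12V shScram, against 7.25, 6.12 and 4.01 CPM in WT shScram (3.36-fold, SE 0.25, adjusted p 8.12e-04). Emb, a chaperone of monocarboxylate transporters, had 75.6, 67.5 and 71.9 CPM in HrasG12V shScram, against 36.3, 27.9 and 40.1 CPM in WT shScram (2.07-fold, adjusted p 8.12e-04). Sec14l2, a lipid transfer protein, rose 2.00-fold (adjusted p 8.97e-04). Fabp5, the epidermal fatty acid-binding protein, had 5238, 5451 and 4506 CPM in HrasG12V shScram, against 1607, 2003 and 1955 CPM in WT shScram (2.73-fold, SE 0.21, adjusted p 0.00440, and 0.0586 without WT shScram library 1). Its groups were far apart, although that fit ended the call. Cholesterol synthesis genes had a median of 0.29 with 23 of 26 positive. In the fit of 9 libraries edgeR called none of them (9 at an unadjusted p under 0.05), and without WT shScram library 3 it called 2. Of all 11448 tested genes 5498 were positive, and 14.3% had an unadjusted p under 0.05.

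Amino acid metabolism held changes in both directions. The following genes other than Slc7a1 and Slc6a6 were chosen after their values were seen. Arg2, the mitochondrial arginase, had 36.3, 30.9 and 30.9 CPM in HrasG12V shScram, against 62.2, 61.7 and 52.1 CPM in WT shScram (log2 −0.84, SE 0.15, adjusted p 0.00688, and 0.0548 without HrasG12V shScram library 3). Glul, glutamine synthetase, fell by 0.58 (adjusted p 0.0210), and Odc1, the first enzyme of polyamine synthesis, rose 1.65-fold (adjusted p 0.0142). The arginine transporter gene Slc7a1 had 278, 272 and 350.5 CPM in HrasG12V shScram, against 174, 234 and 204 CPM in WT shScram (1.47-fold, adjusted p 0.0342), and the taurine transporter gene Slc6a6 rose 1.52-fold (adjusted p 0.0252). Glul, Odc1, Slc7a1 and Slc6a6 kept their calls in 1, 3, 2 and 2 of the 6 fits, with a highest adjusted p of 0.118, 0.0929, 0.214 and 0.176.

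Genes of the translation machinery were called about as often as all tested genes, of which 1.7% were called. Of all 11448 tested genes 5498 were positive, and 14.3% had an unadjusted p under 0.05. All 14 elongation and termination factors had a positive fold change, with a median of 0.25, but edgeR called none of them in the fit of 9 libraries (6 at an unadjusted p under 0.05) and 4 without WT shScram library 3. Of 41 initiation factors 33 were positive and Eif5 was called higher (277, 210.3 and 237 against 164, 131 and 176 CPM, 1.54-fold, adjusted p 0.0202, called in 3 of 6 fits, up to 0.156 without HrasG12V shScram library 1). Of 81 cytosolic ribosomal protein genes 66 were positive, the median was 0.14, and Rpl10 and Rps29 were called higher. Both kept their calls only without WT shScram library 3, with adjusted p-values up to 0.188 for Rpl10 and 0.162 for Rps29 (without HrasG12V shScram library 1), and all 28-base windows of Rpl10 also occur in other genes. The ribosomal protein count was 0 to 20 when 1 library was left out, with 20 without WT shScram library 3. That fit called 559 genes in all. The sums of the ribosomal protein genes were 80778, 72152 and 72736 CPM in HrasG12V shScram, against 61355, 65453 and 71757 CPM in WT shScram, so the highest WT library nearly reached the lowest HrasG12V library. Deptor, an inhibitor that binds the mTOR kinase, had 44.6, 34.96 and 40.3 CPM in HrasG12V shScram, against 16.5, 16.1 and 16.03 CPM in WT shScram (2.47-fold, SE 0.17, adjusted p 2.30e-04), and was called in all 6 fits. The DESeq2 test called 1 elongation factor and 2 cholesterol synthesis genes, and limma voom none. Both tools called 0 members of the RAS cascade, spinous, hemidesmosome, S phase, G2/M and Merkel lists.

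A pair of called genes is known to differ between inbred mouse strains, and they were chosen after their values were seen. Nnt, the mitochondrial transhydrogenase that is truncated in C57BL/6J, had 70.9, 74.0 and 80.9 CPM in HrasG12V shScram, against 49.6, 50.8 and 40.6 CPM in WT shScram (1.601-fold, SE 0.14, adjusted p 0.0185, called in 3 of 6 fits, up to 0.109 without HrasG12V shScram library 3). Ifi202b, an interferon-inducible gene with strain-dependent expression, had 60.4, 47.2 and 61.2 CPM in HrasG12V shScram, against 20.9, 13.1 and 12.8 CPM in WT shScram (3.64-fold, SE 0.28, adjusted p 0.00588), and was called in all 6 fits. Both were higher in every HrasG12V library, and for these as for the other called genes genotype and strain cannot be told apart.

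Most footprint differences had RNA differences of the same sign. RNA of the same conditions, sequenced from other libraries, gave 854 calls among 11096 tested genes (7.7%, with 4.65% higher and 3.05% lower). Of the 141 higher footprint genes 133 were tested in RNA, 120 had a positive RNA change, 60 were called higher in RNA and 0 lower, and their median RNA change was 0.58. Of the 54 lower genes 53 were tested in RNA, 45 had a negative change and 18 were called lower and 0 higher, with a median of −0.51. RNA followed closely for Ptges (33.0, 32.2 and 26.8 against 12.5, 12.8 and 5.61 CPM, log2 1.65, adjusted p 0.00247) and Deptor (31.1, 31.1 and 32.6 against 17.0, 10.1 and 9.95 CPM, log2 1.39, adjusted p 0.00198). For Spred1 the RNA change was 0.15 (109, 70.5 and 122 against 95.9, 79.7 and 99.3 CPM, adjusted p 0.629) beside 1.11 in footprints, and the difference of 0.96 between them had an adjusted p of 0.0689. For Tgfb2 it was −0.19 beside −0.77 (difference −0.58, adjusted p 0.166), and for Mt2 −0.01 beside 0.90 (difference 0.91, adjusted p 0.157).

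**Figure D5:**
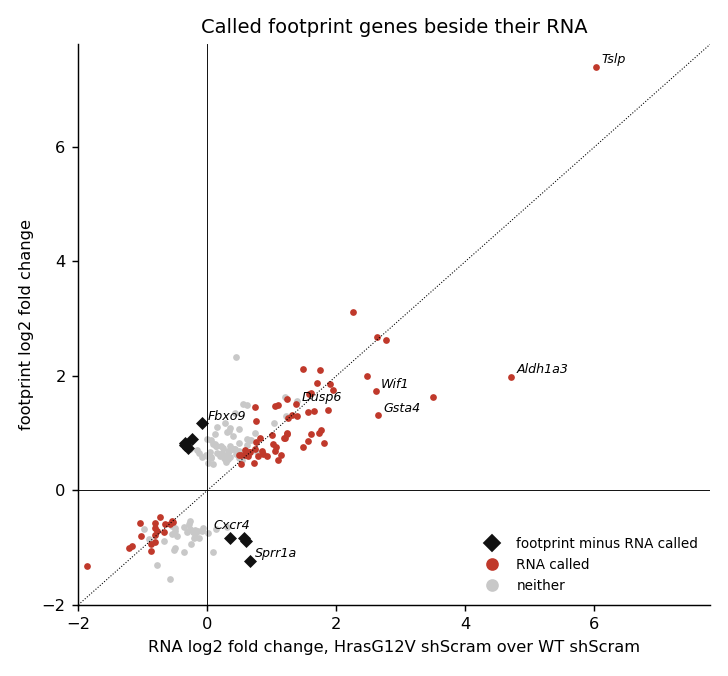
Footprint log2 fold change (vertical axis) against RNA log2 fold change (horizontal axis), HrasG12V shScram over WT shScram, for the 186 called footprint genes that were also tested in RNA. The dotted line marks equal changes, red points were called in RNA as well, and 9 black diamonds were called for the footprint difference minus the RNA difference.

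A model over all 18 libraries tested the footprint difference minus the RNA difference, and called 120 of 11990 genes (1.0%, with 0.125% higher and 0.876% lower). Of the 195 called footprint genes it called 5 of the 141 higher and 4 of the 54 lower. Id1 was among them, with 49.5, 81.1 and 55.0 CPM of RNA in HrasG12V shScram against 90.6, 67.2 and 74.9 CPM in WT shScram (difference of the log2 changes 1.15, adjusted p 0.0215). Sprr1a was another, with 19.1, 20.5 and 9.93 CPM of RNA in HrasG12V shScram against 12.9, 12.4 and 6.69 CPM in WT shScram (difference −1.89, adjusted p 0.0393). Each of the 9 was called in 2 or 3 of 6 fits that left out 1 footprint library and the same-numbered RNA library. No label ties those 2 libraries to each other. The highest adjusted p there was 0.276 for Id1 (without WT shScram library 1) and 0.241 for Sprr1a (without HrasG12V shScram library 1).

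The HrasG12V shEif2b5 footprints were set against the same WT shScram libraries, so the 2 comparisons share their controls and their values are only given side by side. That comparison called 111 genes (0.97%). Dusp6 stood at 288, 302 and 281 CPM in HrasG12V shEif2b5, Etv4 at 67.0, 48.0 and 50.9 CPM, Spry2 at 22.9, 32.3 and 26.0 CPM, and Spred1 at 28.8, 32.3 and 31.1 CPM. For all 4 genes every HrasG12V shEif2b5 library exceeded every WT shScram library. Its log2 difference from WT shScram was 0.99 for Spry2 (adjusted p 0.0333) and 0.48 for Spred1 (adjusted p 0.248), beside 1.49 and 1.11 for HrasG12V shScram. Nqo1 stood at 15.1, 18.51 and 18.9 CPM, Gsta4 at 42.8, 39.9 and 47.2 CPM and Cxcr4 at 52.7, 48.4 and 46.9 CPM in HrasG12V shEif2b5. Wnt5a stood at 34.8, 32.8 and 26.9 CPM, a difference from WT shScram of 0.81 (adjusted p 0.0808) beside 1.47 for HrasG12V shScram, and no test of HrasG12V shEif2b5 against HrasG12V shScram was run here.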

How the data were processed

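Ribosome footprints and RNA of mouse epidermal basal cells were sequenced in 3 conditions, with 3 libraries of each kind. The authors deposited whole-number counts of reads in coding sequence, 1 row per gene symbol, unnormalised. Per the submitters' processing notes Bowtie, TopHat2 and HTSeq were used with mm10, and versions and the strand setting are not given in the sources used here. Symbols were matched to GENCODE vM21 and RefSeq tables. Date-like names left by spreadsheet software were kept as written.

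The members and gene lists were chosen with earlier results of these data known, and the lists carry no test. Counts were analysed in R 4.3.3 with edgeR 4.0.16: filterByExpr by condition (minimum count 10, minimum total 15), TMM scaling, and a robust quasi-likelihood fit of the 9 footprint libraries with a term per condition. A gene was called at an adjusted p under 0.05 over all tested genes (Benjamini-Hochberg). RNA had its own fit of 9 libraries, and the footprint difference minus the RNA difference was the interaction in 1 fit of 18 libraries. With 3 libraries a side, an exact permutation test cannot go below a two-sided p of 0.1, so genes were judged by edgeR. The method was tested on simulated counts. Footprint libraries held 3319175 to 4579407 counts, which limits the precision of low-count genes.

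Libraries of a group were checked for copies, and their counts differed by 3.53 to 13.3 chi-square per degree of freedom. Named genes were Hras and Eif2b5, the 15 highest and 15 lowest fold changes among called genes that averaged 10 CPM or more in either group, had no overlap and were no predicted gene model, up to 30 called genes kept in all 6 fits without 1 library, and from each list up to 5 called members or up to 2 without a call. Members outside this rule were chosen after their values were seen. Alternatives were DESeq2 1.42.0 (size factors and Wald test), upper-quartile factors, other filters, limma 3.58.1 voom, the 6 libraries alone, the replicate number as a block, and leaving out each library.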

Additional observations from a re-analysis of the deposited data

Results flagged for a closer look

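For 9 genes called in footprints, the footprint difference between HrasG12V shScram and WT shScram departed from the RNA difference by edgeR's interaction test, which is what set them apart here. The footprint change minus the RNA change was 1.26 on the log2 scale for Fbxo9, an F-box ubiquitin ligase subunit (1.17 in footprints and −0.08 in RNA). It was 1.16 for Mif4gd, a translation initiation partner (0.82 and −0.34), 1.15 for Id1 (0.79 and −0.35), 1.14 for Klhl18 (0.90 and −0.24) and 1.05 for the small GTPase Arf6 (0.75 and −0.30). It was −1.89 for Sprr1a (−1.23 and 0.65), −1.50 for Tmem256 (−0.89 and 0.60), −1.40 for Mapk1ip1l (−0.84 and 0.56) and −1.20 for the peptide transporter Slc15a2 (−0.84 and 0.36). In footprints alone Id1 kept its call in all 6 fits without 1 library, Fbxo9 and Klhl18 in 3, Sprr1a in 2, and the other 5 only without WT shScram library 3 (up to 0.228 for Mapk1ip1l, without WT shScram library 2). None of the 9 was called in RNA by edgeR, and each was called in 2 or 3 of the 6 interaction fits without 1 library, with highest adjusted p-values of 0.159 to 0.318.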

How the results depend on the processing

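The footprint count of 195 was 196 with DESeq2 size factors (195 of the 195 genes shared), 209 with upper-quartile factors, 264 with no filter, 165 at a mean of at least 10 CPM, 194 without the 20 most abundant genes, 260 by DESeq2's Wald test, 142 by limma voom and 225 in the 6 libraries alone. Leaving out 1 library gave between 73 calls, when HrasG12V shScram library 1 was out, and 559, when WT shScram library 3 was out, and this last fit shared 183 of the 195. The RNA count of 854 was 389 in the 6 RNA libraries alone and 189 to 2431 without 1 library. The interaction count of 120 was 190 with no filter and 1 to 384 without 1 library. Same-numbered footprint libraries correlated at 0.110, 0.0238 and −0.0242 in their deviations from group means. Differently numbered ones correlated at −0.0982 to 0.0704. With 3 libraries per group these values cannot settle whether the replicate numbers mark pairs. With the replicate number as a block the footprint count was 219 (183 shared), the RNA count 648 and the interaction count 128. No named gene changed direction in footprints under an alternative where it was called in the main fit or in that alternative. Changes of direction without a call were not counted. Of the named genes' values under the alternatives, 211 lost a call and 22 gained one. Genes of a few CPM rest on few counts at this depth.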
